A study of Gallus gallus with 6 samples.

Results

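The endoplasmic reticulum (ER) genes described here encode the machinery that brings new proteins into the ER, folds and oxidises them, discards failures and packs the rest into vesicles. Their members were chosen by gene symbol: probe sets with a single symbol of the SEC, SSR, SRP, SPCS, PDIA, ERO1, DERL, COPB, COPG, TRAM or EDEM series, or CALR, CANX, HYOU1 or SAR1B, with the probe set of the highest mean over the 6 samples for each gene. This gave 61 of 13009 named genes on the array. They were measured in DT40, a chicken B cell line, labelled as adult, female and derived from bursal tissue (the bursa of Fabricius). The 3 Pax5-deficient samples (genotype Pax5-/-) came from stably transfected cells that had received the targeting constructs Pax5-neo and Pax5-bsr, named for their selection cassettes, by electroporation. The 3 wild-type samples were DT40 cells grown in the same medium, with no other treatment or allele given. Whether 1 clone or several gave the Pax5-deficient samples, and whether cultures were separate, the labels leave unsaid. The p-values therefore cover only the spread among these 6 samples, which may be technical. Effects of transfection and clone selection cannot be told apart from those of the loss of PAX5, a transcription factor required for commitment to the B cell lineage.

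As background, most secreted and membrane proteins are recognised while still being made. The signal recognition particle binds their signal sequence and docks the ribosome at the SEC61 channel of the ER membrane, where signal peptidase removes the signal. Lectin chaperones and protein disulfide isomerases then fold them, ERO1 oxidases recharge the isomerases, and derlins and EDEM proteins take misfolded ones out. COPII vesicles carry cargo from the ER to the Golgi, and COPI vesicles bring escaped ER proteins back. In B cells this route carries immunoglobulin, and it expands when they become antibody-secreting plasma cells.

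An Affymetrix chicken array was used for every sample, and values are log2 expression after RMA, a normalization across arrays. Array medians lay between 3.95 and 4.02. The number of arrays limits the precision. Correlations across probe sets were 0.9909 to 0.9936 among Pax5-deficient samples, 0.9946 to 0.9959 among wild-type samples and 0.9781 to 0.9806 between the groups. Of 4 PAX5 probe sets, 1 passed the test and was lower, at 3.86, 3.55 and 3.34 in Pax5-deficient samples against 4.55, 4.41 and 4.30 in wild-type samples. All Pax5-deficient values of that probe set were at background, which makes the difference at least 1.47-fold. Its place relative to the targeted part of the gene was not analysed here, and the brightest PAX5 probe set did not pass (0.24 ± 0.09). Of 7 measured B lineage markers 4 were lower in Pax5-deficient samples (CD79B, BTK, EBF1 and POU2AF1), and EBF1 was at background in them. The rest lay higher and did not pass: IKZF1 (0.44 ± 0.13) and SYK (0.29 ± 0.11) without overlap, and JCHAIN (0.25 ± 0.13) with overlap. Differences of the lower markers ran from -0.87 for BTK to -5.24 for EBF1. The mean level of that list was 8.80 to 8.96 in Pax5-deficient and 9.95 to 10.21 in wild-type samples. None of 4 measured plasma cell markers passed, with PRDM1 at background in all 6 samples (list mean 7.31 to 7.60 in Pax5-deficient and 7.18 to 7.29 in wild-type samples). The lists for other cell types held calls in both directions, and the lists themselves were not tested. The mean level over 7 T lineage markers was 5.37 to 5.54 in Pax5-deficient and 5.08 to 5.23 in wild-type samples, with CD247 and CD8A higher, CD3E lower, and CD4 and GATA3 at background in all 6. Over 7 fibroblast and stromal markers it was 4.26 to 4.35 in Pax5-deficient and 4.09 to 4.23 in wild-type samples, with COL1A2 higher and DCN, LUM and THY1 at background. Over 5 myeloid markers it was 5.34 to 5.57 in Pax5-deficient and 5.82 to 6.05 in wild-type samples, with CEBPB and SPI1 lower. None of 4 erythroid and thrombocyte markers passed (4.18 to 4.41 in Pax5-deficient and 4.07 to 4.22 in wild-type samples), with TAL1 and GP9 at background. The part of these marker differences in the ER results was not tested, and in bulk RNA fewer cells of a type cannot be told apart from less RNA per cell.

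Some members of several ER complexes and families changed in Pax5-deficient cells, in both directions. A difference of under 0.5 on the log2 scale was found for 50 of 61 members, beside 11241 of 13009 named genes. Of the 61 members, 10 were higher in Pax5-deficient cells, 4 were lower and 47 did not pass the test (limma, Benjamini-Hochberg adjusted p under 0.05 over all 38439 probe sets). Higher were the COPII cargo adaptor SEC24D, the COPI subunit COPB2, the chaperone CALR, the oxidase ERO1A, the translocon genes SSR3, SEC62 and SEC61G, and SRP19, SRP54 and SRP14 of the signal recognition particle. Lower were DERL3, ERO1B, SAR1B and SEC24A. Among all named genes 15.8% passed, 6.01% higher and 9.74% lower. Among members it was 23.0%, with 16.4% higher and 6.56% lower. Background was exceeded in all 6 samples by 59 members, beside 8615 of 13009 named genes. Some of the 59 lay close to it, such as PDIA2 with means of 4.14 in Pax5-deficient and 4.05 in wild-type samples. Among the 8917 named genes at or above the median level of all probe sets, 22.2% passed, with 8.43% higher and 13.7% lower. Of the 59 members at that level it was 23.7%, with 16.9% higher and 6.78% lower. The members' median log2 difference was 0.07, beside 0.03 over all named genes. Without wild-type replicate 1 or 3 it was 0.03, without Pax5-deficient replicate 2 it was 0.02, and over the 59 members at or above the median level it was 0.03, beside 0.02 for named genes at that level. Of the 61 members, 36 had a 95% interval of the log2 difference that lay wholly within 0.5 of 0, beside 8448 of the 13009 named genes. For the rest, not passing does not show that a gene was alike in both groups. The groups did not overlap for 16 members that lay higher and 11 that lay lower in Pax5-deficient cells, 44.3% of members (26.2% higher) beside 35% of named genes (17.5% in each direction). At or above the median level the share was nearly the same, 45.8% of members beside 44.0% of named genes. By direction it was 27.1% higher and 18.6% lower for members, and 20.4% and 23.6% for named genes. The count of higher members was 6 without wild-type replicate 1 and also without wild-type replicate 3. Median SDs over the members were 0.124 in Pax5-deficient and 0.077 in wild-type samples on the log2 scale.

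**Figure D1:**
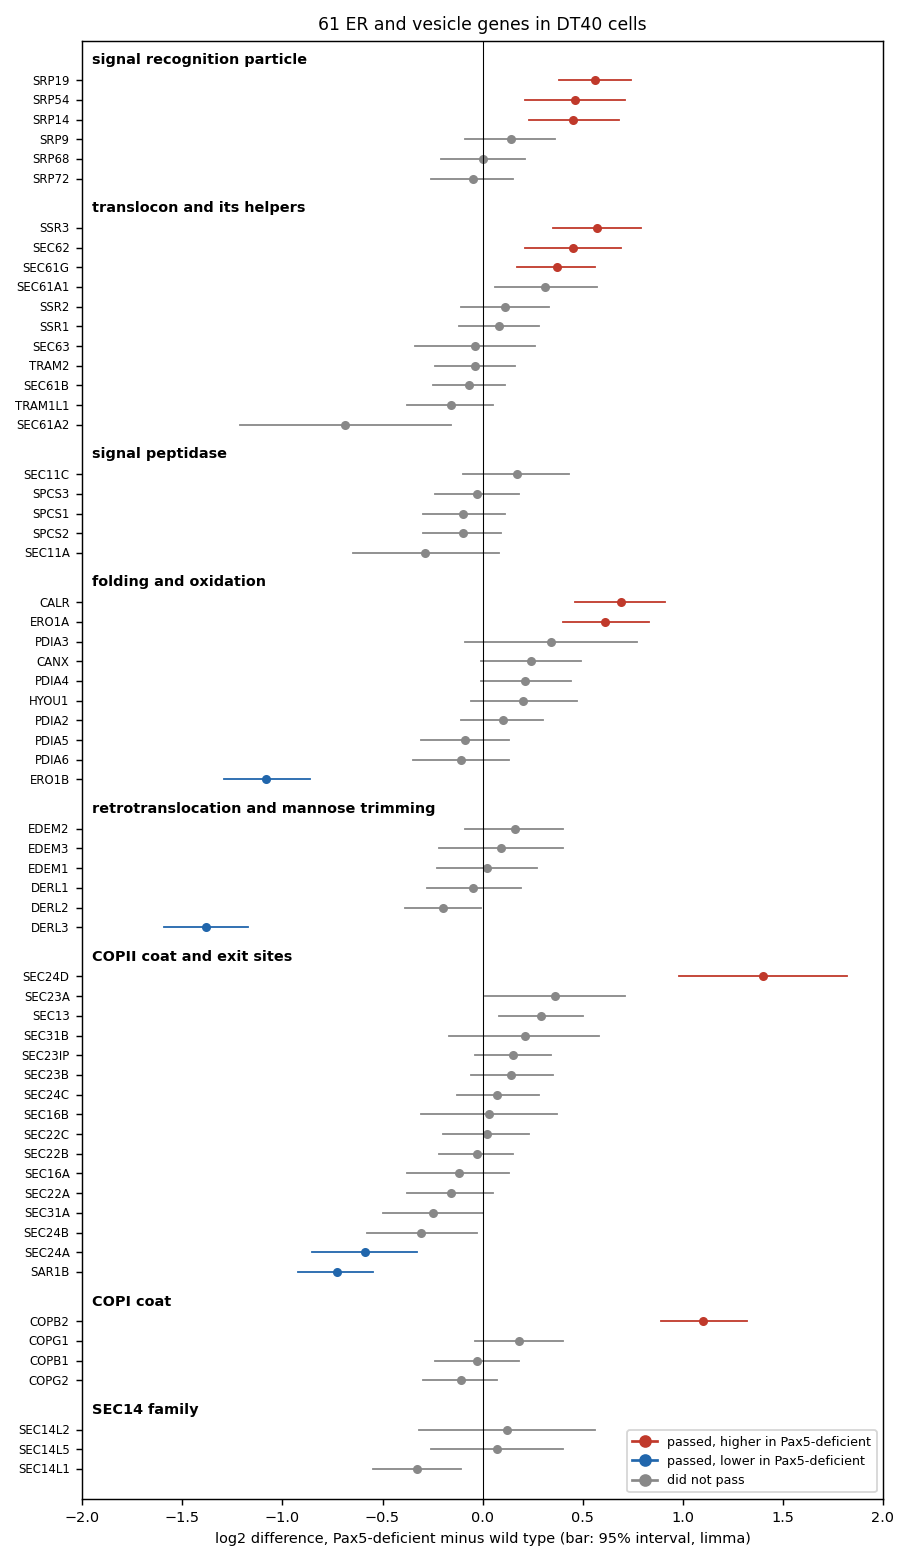
Log2 difference of each of the 61 members, Pax5-deficient minus wild type (x axis), grouped by role down the page; points are limma estimates from 3 samples per group and bars are 95% intervals. The 10 red points (passed, higher) reach 1.40 for SEC24D, the 4 blue points (passed, lower) reach -1.38 for DERL3, and the 47 grey points did not pass.

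The signal recognition particle is an RNA with bound proteins, and of its 6 members here 3 were higher in Pax5-deficient cells and none was lower. Beside this and each role group below, 8.43% of named genes at or above the median level passed as higher and 13.7% as lower. No role group was tested as a set. SRP19, which helps to assemble SRP54 onto the RNA, was at 9.0, 9.03 and 8.95 in Pax5-deficient samples, against 8.44, 8.39 and 8.47 in wild-type samples. The groups lay apart by several times their spread, and the log2 difference was 0.56 ± 0.08 (SE, n = 3 per group; limma adjusted p = 0.00245), or 1.47-fold. SRP54, the GTPase that binds the signal sequence, was at 9.09, 9.48 and 9.29 in Pax5-deficient samples, against 8.84, 8.88 and 8.76 in wild-type samples. Its difference was 0.46 ± 0.11 (limma adjusted p = 0.0301), with replicate 2 the highest of the Pax5-deficient samples and no overlap. SRP14, which with SRP9 forms the domain that slows the ribosome, was at 10.38, 10.25 and 10.51 in Pax5-deficient samples, against 9.92, 10.01 and 9.83 in wild-type samples. It differed by 0.45 ± 0.10 (limma adjusted p = 0.0197). The partners SRP68 and SRP72, which bind each other on the RNA, did not pass, with 95% intervals of -0.21 to 0.21 and -0.26 to 0.15. SRP9 (0.14 ± 0.10) lay near background, above it in 2 Pax5-deficient samples and 1 wild-type sample. The SRP19 call held without any 1 sample. For SRP14 the adjusted p of limma reached 0.0621 and 0.0835 on leaving out wild-type replicate 1 or 3, and 0.0697 on leaving out Pax5-deficient replicate 3. For SRP54 it reached 0.0826, 0.0812 and 0.112 on leaving out wild-type replicate 1, 2 or 3, and 0.0651 and 0.0859 on leaving out Pax5-deficient replicate 2 or 3.

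At the translocon, 3 of 11 members were higher in Pax5-deficient cells and none was lower. Of these, SSR3 and SEC62 lie on chromosome 9, where 28.2% of all named genes passed as higher. SSR3, a subunit of the translocon-associated protein complex that helps some signal sequences to engage, was at 10.59, 10.40 and 10.34 in Pax5-deficient samples, against 9.90, 9.91 and 9.79 in wild-type samples. The groups did not overlap, and the log2 difference was 0.57 ± 0.10 (SE, n = 3 per group; limma adjusted p = 0.00557). Its partner subunits SSR1 and SSR2 did not pass, with differences of 0.08 ± 0.09 and 0.11 ± 0.10. SEC62, which with SEC63 serves proteins that enter the ER after they are made, was at 9.03, 8.82 and 8.68 in Pax5-deficient samples, against 8.45, 8.38 and 8.36 in wild-type samples. It differed by 0.45 ± 0.11 (limma adjusted p = 0.0273), while SEC63 had a difference of -0.04 ± 0.13. SEC61G, a small subunit of the channel, was at 11.35, 11.48 and 11.36 in Pax5-deficient samples, against 10.97, 11.05 and 11.07 in wild-type samples. This is a difference of 0.37 ± 0.09 (limma adjusted p = 0.0256), or 1.29-fold, the smallest among the members that passed. Of the other channel subunits, the pore gene SEC61A1 lay higher with no overlap but did not pass (0.31 ± 0.11, limma adjusted p = 0.133), and SEC61B did not pass (95% interval -0.25 to 0.11). SEC61B was at 13.57, 13.60 and 13.59 in Pax5-deficient samples, against 13.65, 13.68 and 13.64 in wild-type samples. SEC61A2, a second gene for the pore subunit, was at 6.21, 6.88 and 5.83 in Pax5-deficient samples and 6.85, 6.94 and 7.17 in wild-type samples. Replicates 1 and 3 lay low and replicate 2 did not, and the difference of -0.69 ± 0.23 did not pass (limma adjusted p = 0.107). Without Pax5-deficient replicate 2 it was -0.97 (limma adjusted p = 0.0031). Both further SEC61A2 probe sets likewise passed as lower only without that replicate (0.025 and 0.0458). TRAM1L1 and TRAM2, of the family of translocating chain-associated membrane proteins, differed by -0.16 ± 0.09 and -0.04 ± 0.09. The SSR3 call held without any 1 sample. SEC61G no longer passed on leaving out wild-type replicate 1, 2 or 3 (limma adjusted p = 0.0892, 0.0795 and 0.0669) or Pax5-deficient replicate 2 or 3 (0.0666 and 0.06). SEC62 no longer passed on leaving out wild-type replicate 1, 2 or 3 (0.0638, 0.1 and 0.0979) or Pax5-deficient replicate 1 (0.0606).

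Signal peptidase showed no call among its 5 members. SPCS3, an accessory subunit, was at 11.63, 11.66 and 11.43 in Pax5-deficient samples and 11.61, 11.62 and 11.58 in wild-type samples. SPCS1, SPCS2 and SPCS3 had log2 differences of -0.10 ± 0.09, -0.10 ± 0.09 and -0.03 ± 0.09 (SE, n = 3 per group). SEC11C, a catalytic subunit, had 0.17 ± 0.12. The other catalytic subunit, SEC11A, was at 10.59, 11.24 and 10.62 in Pax5-deficient samples, against 11.14, 11.09 and 11.08 in wild-type samples. Replicates 1 and 3 lay below all wild-type samples and replicate 2 above them, and the difference over all 6 samples was -0.29 ± 0.16 (limma adjusted p = 0.36). Without Pax5-deficient replicate 2 it was -0.50 ± 0.09 (limma adjusted p = 0.0104).

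Among 10 genes of glycoprotein folding and disulfide formation, 2 were higher, 1 was lower and 7 did not pass. CALR encodes calreticulin, a soluble lectin chaperone that also buffers calcium in the ER. It was at 10.04, 10.25 and 10.17 in Pax5-deficient samples, against 9.45, 9.59 and 9.36 in wild-type samples. Every Pax5-deficient sample lay above every wild-type one, with a log2 difference of 0.69 ± 0.10 (SE, n = 3 per group; limma adjusted p = 0.00237), or 1.61-fold. CANX, its membrane-bound relative calnexin, lay higher with no overlap but did not pass (0.24 ± 0.11, limma adjusted p = 0.255).

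The ERO1 oxidases, which pass electrons from protein disulfide isomerase to oxygen, went opposite ways. ERO1A was at 8.63, 8.82 and 8.83 in Pax5-deficient samples, against 8.23, 8.13 and 8.08 in wild-type samples, a difference of 0.61 ± 0.09 (SE, n = 3 per group; limma adjusted p = 0.00356). ERO1B was at 7.02, 6.83 and 6.89 in Pax5-deficient samples, against 7.90, 8.08 and 7.99 in wild-type samples. It was lower by 2.11-fold (-1.08 ± 0.09, limma adjusted p = 0.000153), and no samples of the groups overlapped for either gene. A further ERO1B probe set also was lower (-1.15 ± 0.10, limma adjusted p = 0.00019), and the other ERO1A probe set was at background in both groups. None of the PDIA isomerases passed. PDIA6 was at 11.22, 11.45 and 11.43 in Pax5-deficient samples and 11.45, 11.63 and 11.36 in wild-type samples, which overlapped. PDIA4 and PDIA6 had differences of 0.21 ± 0.10 and -0.11 ± 0.11, PDIA5 -0.09 ± 0.10 and the dim PDIA2 0.10 ± 0.09. PDIA3, which works with calreticulin and calnexin on glycoproteins, was at 9.84, 10.49 and 9.63 in Pax5-deficient samples, against 9.66, 9.62 and 9.66 in wild-type samples. Replicate 2 stood well above the wild-type samples, replicate 1 a little above and replicate 3 among them, and the difference of 0.34 ± 0.19 was 0.09 ± 0.10 without it (limma adjusted p = 0.348 and 0.671). HYOU1, a large chaperone that resets the HSP70 protein of the ER, differed by 0.20 ± 0.12 and did not pass. The calls of CALR, ERO1A and ERO1B held without any 1 sample.

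Of 6 genes of retrotranslocation and mannose trimming, DERL3 alone passed, and it was the lowest of all members relative to wild type. Derlins are membrane proteins through which misfolded chains leave the ER, and in mammals DERL3 is found mainly in secretory cells. DERL3 was at 8.13, 8.05 and 8.21 in Pax5-deficient samples, against 9.59, 9.52 and 9.41 in wild-type samples. The gap was more than 10 times the SD of either group (0.08 and 0.09), with a log2 difference of -1.38 ± 0.09 (SE, n = 3 per group; limma adjusted p = 3.62e-05), or 2.60-fold lower. Another DERL3 probe set was at 6.31, 5.99 and 6.08 in Pax5-deficient samples, against 7.44, 7.34 and 7.15 in wild-type samples, and fell by 1.18 ± 0.12 (limma adjusted p = 0.00032). DERL1 was at 11.01, 10.72 and 10.73 in Pax5-deficient samples and 10.90, 10.90 and 10.79 in wild-type samples. DERL1 and DERL2 had 95% intervals of -0.28 to 0.19 and -0.39 to -0.01, and neither passed. EDEM1, EDEM2 and EDEM3, which trim mannose from glycoproteins bound for disposal, had differences of 0.02 ± 0.11, 0.16 ± 0.11 and 0.09 ± 0.13. The DERL3 call held without any 1 sample.

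**Figure D2:**
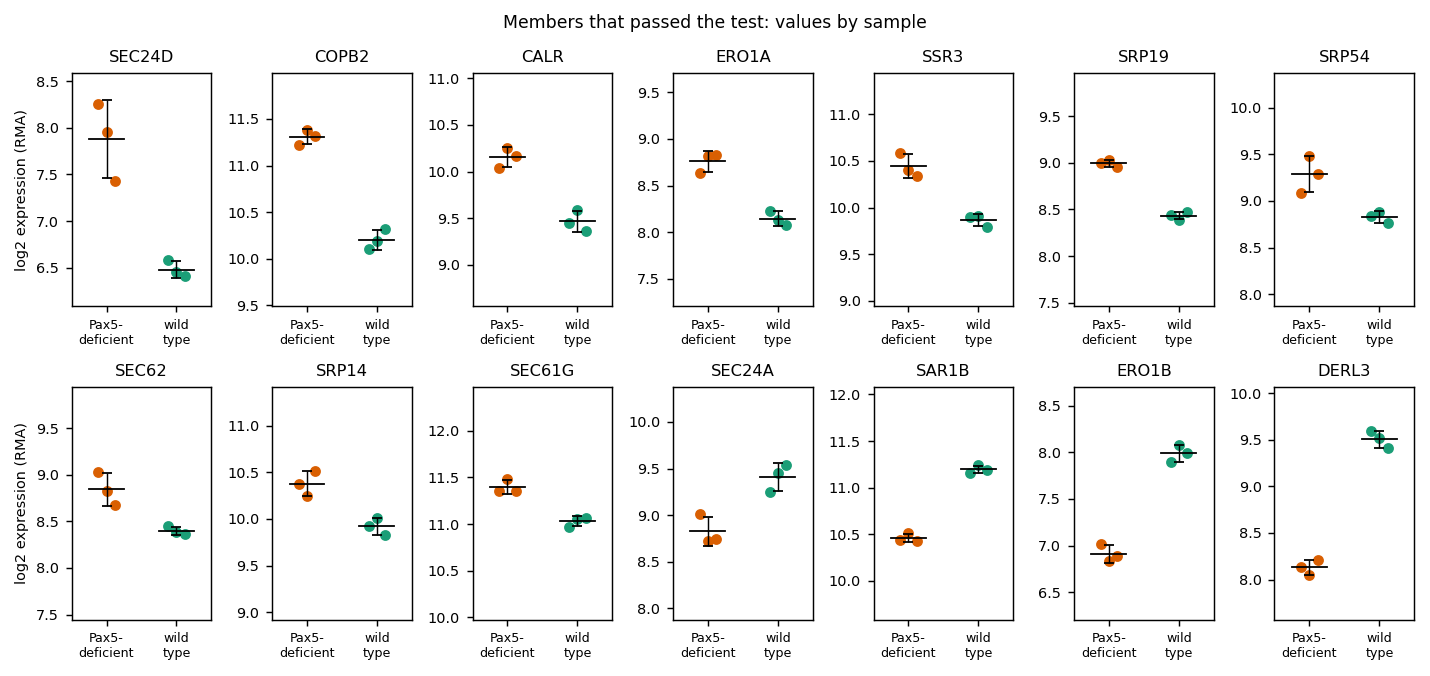
Log2 expression (y axis) of the 14 members that passed, by sample, with the 3 Pax5-deficient samples left of the 3 wild-type samples in each panel; lines are means and bars are SDs, and each y axis spans the same length. The groups do not overlap in any panel, and SEC24D has the widest spread, 0.42 in Pax5-deficient samples.

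The COPII coat had the largest rise and a pair of falls among its 16 members. SEC24 proteins select cargo for the vesicle, and vertebrates have several of them with different cargo preferences. SEC24D was at 8.26, 7.95 and 7.43 in Pax5-deficient samples, against 6.58, 6.45 and 6.41 in wild-type samples. The Pax5-deficient samples were spread (SD 0.42, against 0.09) yet all lay well above wild type, with a log2 difference of 1.40 ± 0.18 (SE, n = 3 per group; limma adjusted p = 0.00153), or 2.64-fold. All of the 4 further SEC24D probe sets passed in the same direction, with differences of 1.44 ± 0.17, 1.23 ± 0.16, 1.36 ± 0.09 and 0.72 ± 0.09. SEC24A was at 9.01, 8.72 and 8.75 in Pax5-deficient samples, against 9.25, 9.45 and 9.54 in wild-type samples. It was lower with no overlap (-0.59 ± 0.11, limma adjusted p = 0.0111). Its further probe sets had differences of -0.51 ± 0.19 and -0.34 ± 0.13 and did not pass, and with wild-type replicate 2 or 3 left out the gene no longer passed (limma adjusted p = 0.0548 and 0.0512). SEC24B and SEC24C did not pass, with differences of -0.31 ± 0.12 and 0.07 ± 0.09. Without wild-type replicate 1, SEC24B passed as lower (-0.43, limma adjusted p = 0.0414). Its further probe set had -0.45 ± 0.16 and did not pass (limma adjusted p = 0.141).

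SAR1B encodes the GTPase that starts coat assembly at the ER membrane. It was at 10.44, 10.51 and 10.43 in Pax5-deficient samples, against 11.16, 11.24 and 11.19 in wild-type samples. Replicates within a group differed by under 0.1, and the gene was lower in Pax5-deficient cells (-0.73 ± 0.08, SE, n = 3 per group; limma adjusted p = 0.000585), or 1.66-fold. A dimmer SAR1B probe set was lower by the same amount (-0.73 ± 0.14, limma adjusted p = 0.0119), a call lost without wild-type replicate 2 or 3 (0.0564 and 0.0539). SAR1B and SEC24A lie next to each other among measured genes on chromosome 13 in the RefSeq assembly GRCg7b. Of the 5 measured genes on each side, 1 passed: PCBD2, at the far end beyond SEC24A, was lower, by 1.29-fold (limma adjusted p = 0.0271). The groups did not overlap, with Pax5-deficient samples lower, for 4 of these 10 genes (PCBD2, TXNDC15, C5orf24 and C5orf15), while CAMLG and JADE2, the direct neighbours of the pair, overlapped. These neighbours were looked at after the values were seen. Among all named genes 17.5% lay lower without overlap, and among those at or above the median level 23.6% did.

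The rest of the COPII set did not pass. SEC13, a subunit of the outer cage, was at 11.51, 11.72 and 11.50 in Pax5-deficient samples, against 11.27, 11.32 and 11.26 in wild-type samples. Its log2 difference of 0.29 ± 0.09 (SE, n = 3 per group; limma adjusted p = 0.0935) passed with quantile normalization and with a variance trend. SEC31A, its partner in the cage, had -0.25 ± 0.11, and the dimmer SEC31B 0.21 ± 0.17. SEC23A, of the inner coat, was at 5.71, 6.17 and 5.54 in Pax5-deficient samples, against 5.52, 5.48 and 5.35 in wild-type samples, with replicate 2 the highest. Its difference of 0.36 ± 0.15 did not pass (limma adjusted p = 0.21). SEC23B had 0.14 ± 0.09 on the probe set that represents it. On a dimmer one it differed by 0.57 ± 0.13 (limma adjusted p = 0.0264), which did not hold on leaving out wild-type replicate 1, 2 or 3 (0.0969, 0.0769 and 0.063). The exit site scaffolds SEC16A and SEC16B differed by -0.12 ± 0.11 and 0.03 ± 0.15, and SEC23IP, which binds SEC23, by 0.15 ± 0.08. The SNARE protein SEC22B and the related SEC22A and SEC22C had -0.03 ± 0.08, -0.16 ± 0.10 and 0.02 ± 0.09. The calls of SEC24D and SAR1B on the probe sets that represent them held without any 1 sample.

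Of the 4 COPI members, COPB2 was higher and the others did not pass. COPB2, the β′ subunit that with the α subunit COPA forms the outer layer of the coat, was at 11.22, 11.38 and 11.32 in Pax5-deficient samples, against 10.10, 10.19 and 10.32 in wild-type samples. Every Pax5-deficient sample lay above every wild-type one (SDs 0.08 and 0.11), with a log2 difference of 1.10 ± 0.09 (SE, n = 3 per group; limma adjusted p = 0.000144), or 2.15-fold, and the call held without any 1 sample. COPB1, the β subunit of the inner layer, was at 11.11, 11.15 and 10.90 in Pax5-deficient samples and 11.06, 11.09 and 11.09 in wild-type samples, which overlapped (-0.03 ± 0.09). The γ subunits COPG1 and COPG2 had differences of 0.18 ± 0.10 and -0.11 ± 0.08. The COPI subunits left out by the symbol rule showed COPA higher by 0.60 ± 0.08 (limma adjusted p = 0.00209), at 10.39, 10.39 and 10.40 in Pax5-deficient samples against 9.75, 9.75 and 9.88 in wild-type samples. COPE, the ε subunit, and ARCN1, the δ subunit, lay higher without overlap but did not pass. Their differences were 0.28 ± 0.10 and 0.31 ± 0.12 (limma adjusted p = 0.145 and 0.167).

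The symbol rule also took 3 genes of the SEC14 family, lipid-binding proteins outside the ER route. SEC14L1 was at 7.53, 7.50 and 7.39 in Pax5-deficient samples, against 7.70, 7.95 and 7.76 in wild-type samples, and its log2 difference of -0.33 ± 0.10 (SE, n = 3 per group) did not pass (limma adjusted p = 0.0668). SEC14L2 differed by 0.12 ± 0.19. SEC14L5 was at background in all 6 samples and gives no difference.

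Within gene families, the change of 1 paralog relative to another was computed in each sample for 15 pairs, chosen with these values known. For SEC24D against SEC24A the log2 ratio shifted by 2.19, 2.16 and 1.62 in the Pax5-deficient samples relative to the wild-type mean, while the wild-type samples lay at 0.26, -0.07 and -0.20 around it. The mean shift was 1.99 ± 0.23 (SE, n = 3 per group). Standard errors of these shifts come from the 3 values of each group alone. They are not limma's moderated ones and are themselves imprecise. ERO1B against ERO1A shifted by -1.69 ± 0.15, DERL3 against DERL1 by -1.33 ± 0.11, DERL3 against DERL2 by -1.18 ± 0.03 and COPB2 against COPB1 by 1.13 ± 0.11. SEC61A1 against SEC61A2 shifted by 1.30, 0.26 and 1.44 in the 3 Pax5-deficient samples, so that replicate 2 lay much closer to wild type. EDEM1 against EDEM3 and SEC23A against SEC23B shifted by -0.07 ± 0.09 and 0.21 ± 0.18. In the exact permutation test (two-sided), 12 of the 15 pairs reached p = 0.1, the smallest that 3 against 3 samples allow. After Benjamini-Hochberg adjustment over the 15 pairs this was 0.125, so the design cannot bring any of these below the threshold. That smallest p arises whenever the ratios of the groups do not overlap, as for EDEM1 against EDEM2 with a shift of -0.14 ± 0.06. The share of such pairs among other genes was not computed, so nothing is drawn from the count.

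**Figure D3:**
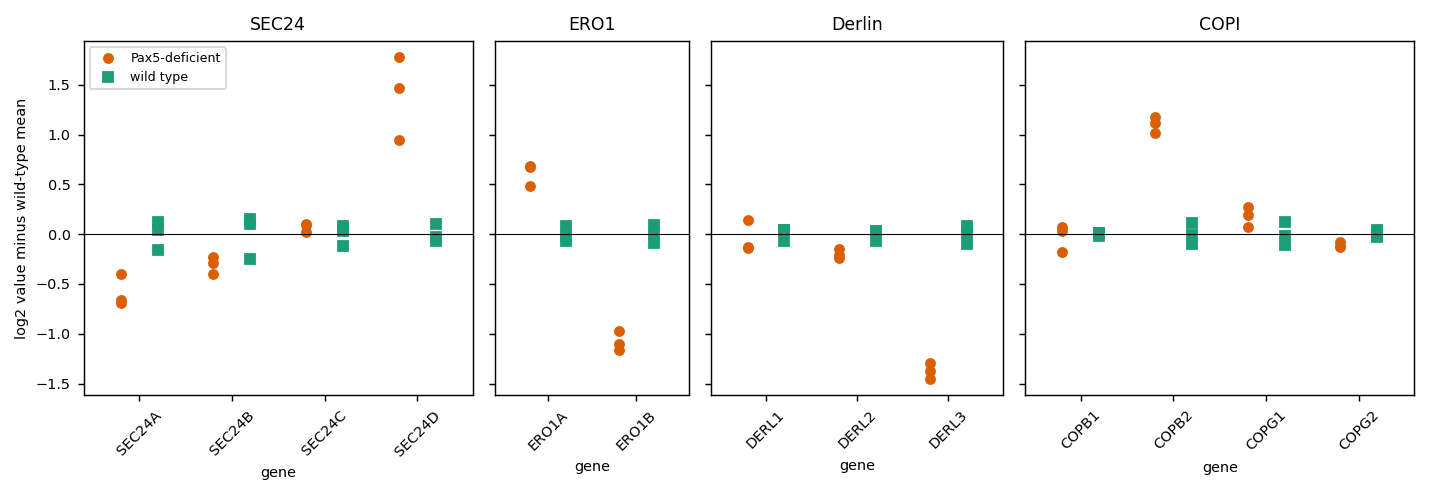
Log2 value of each sample minus the wild-type mean of that gene (y axis) for the SEC24, ERO1 and derlin families and the COPI members; circles are Pax5-deficient samples and squares, to their right, wild-type samples, 3 of each. SEC24D and COPB2 circles lie near 1 or above, DERL3 and ERO1B circles near -1 or below, and SEC24C, DERL1 and COPB1 circles around 0.

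The array holds 77 further probe sets for the 61 members, of which 5 were higher, 3 lower and 69 did not pass, beside 10.6% of all probe sets that passed (3.93% higher and 6.7% lower). For the 14 members that passed, 14 further probe sets exist: 4 higher, all of SEC24D, 3 lower, of DERL3, ERO1B and SAR1B, and 7 that did not pass. None passed in the direction opposite to the probe set that represents its gene. COPB2, CALR, SSR3, SRP19 and SEC61G rest on a single probe set each.

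Members on chromosome 9 were all higher in Pax5-deficient cells. These were COPB2, SSR3 and SEC62, and chromosome 9 as a whole was raised: the median over its 383 named genes, each set against its wild-type mean, was 0.215, 0.167 and 0.167 in the 3 Pax5-deficient samples, against -0.011, 0.021 and -0.001 in the wild-type samples. On that chromosome 32.1% of named genes passed, 28.2% as higher and 3.92% as lower. With the chromosome's median difference of 0.16 subtracted, the log2 differences were 0.94 for COPB2, 0.42 for SSR3 and 0.29 for SEC62. That median takes in 81 genes at background in both groups, so it may understate the shift of brighter genes such as these members. Away from chromosome 9, 7 of 58 members were higher (12.1%) and 4 lower (6.90%), beside 5.39% and 9.96% of 12465 named genes on other chromosomes. These shares are not matched for level: 56 of the 58 members and 8259 of the 12465 named genes lay above background in all 6 samples. Of named genes at or above the median level, whatever their chromosome, 8.43% were higher and 13.7% lower. On chromosome 10 the median was 0.171 in Pax5-deficient replicate 2, against 0.008 and -0.006 in replicates 1 and 3. Both members there, PDIA3 and SEC11A, were highest in that replicate, at 0.84 and 0.13 above their wild-type means, against 0.20 and -0.51 in replicate 1 and -0.01 and -0.48 in replicate 3. The part of these chromosome-wide shifts in the values of single genes was not tested further.

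**Figure D4:**
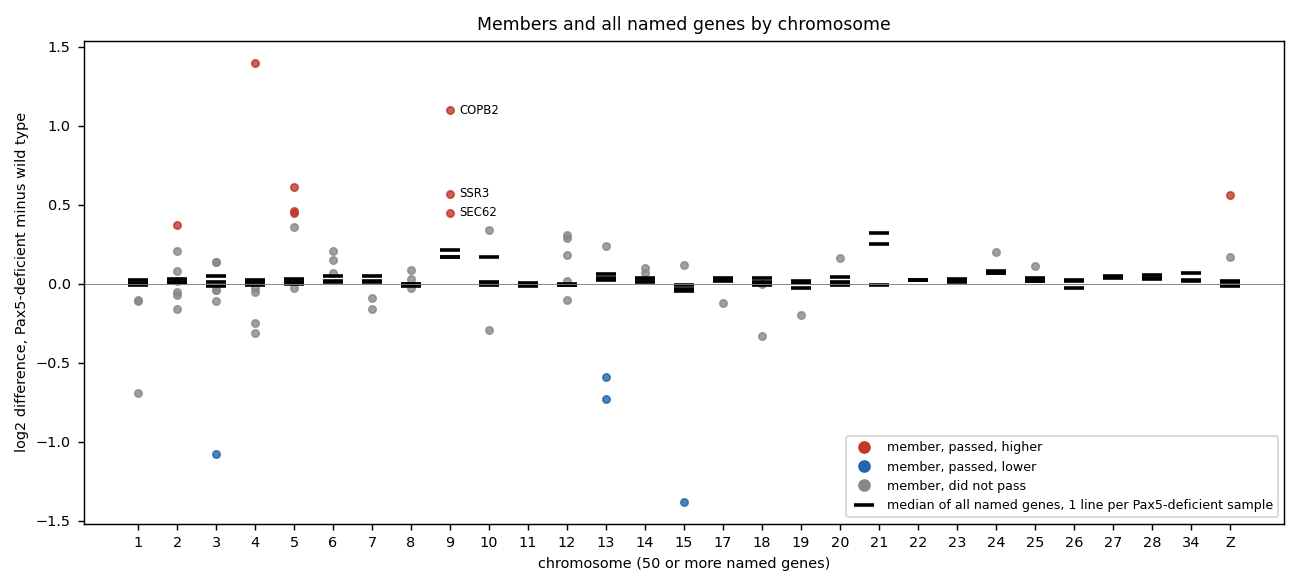
Log2 difference of each member, Pax5-deficient minus wild type (y axis), by chromosome (x axis), with short black lines for the median of all named genes on the chromosome in each Pax5-deficient sample relative to the wild-type mean. The chromosome 9 lines lie between 0.167 and 0.215 with all 3 members there above them; chromosomes with under 50 named genes, such as chromosome 30 of CALR, are not drawn.

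Other genes of the same route moved both ways too. They came from a list of 104 drawn up from general knowledge, with earlier results of these data known. Of 80 measured, 10 were higher, 6 lower and 64 did not pass (20.0% passed, 12.5% higher and 7.50% lower), and their median log2 difference was 0.07. Among all named genes 15.8% passed, 6.01% higher and 9.74% lower. Among named genes at or above the median level it was 22.2%, with 8.43% higher and 13.7% lower. Above background in all 6 samples lay 75 of the 80. Of the genes that cooperate with the members above, COPA and the ARF activator GBF1 (0.40 ± 0.08, SE, n = 3 per group), which sets up COPI budding, were higher. So were the cargo adaptor TMED3 (1.85 ± 0.20), the SNARE protein BET1 (0.47 ± 0.11) and ERGIC3 (0.68 ± 0.14), a membrane protein of the compartment between ER and Golgi. The protein folding genes DNAJB11 (1.64 ± 0.18), TXNDC5 (1.29 ± 0.15) and FKBP7 (0.83 ± 0.11) were also higher. KDELR2, a receptor that returns ER proteins in COPI vesicles, was lower (-0.53 ± 0.10). CREB3L2, a transcription factor whose zebrafish counterpart is known to activate COPII genes, was at 7.97, 8.25 and 7.55 in Pax5-deficient samples, against 6.08, 5.71 and 6.02 in wild-type samples. That is a 3.98-fold difference with no overlap (limma adjusted p = 0.000168). A link between CREB3L2 and the COPII members was not tested, and of those 16 members 1 was higher and 2 were lower.

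Of the genes of this list that handle glycans, some passed in each direction. UGGT1, which puts a glucose back on unfolded glycoproteins so that calreticulin and calnexin bind them again, was at 8.94, 8.90 and 8.86 in Pax5-deficient samples, against 8.04, 8.14 and 8.25 in wild-type samples (0.76 ± 0.09, SE, n = 3 per group; limma adjusted p = 0.0008). Its paralog UGGT2 was lower (-0.43 ± 0.10, limma adjusted p = 0.0252). STT3B, a catalytic subunit of the enzyme that attaches glycans, was lower (-0.82 ± 0.10). Of the other subunits of that enzyme, RPN1, RPN2, DAD1 and OSTC did not pass (-0.15, 0.01, 0.14 and 0.11), nor did DDOST (0.94 ± 0.26, limma adjusted p = 0.0556), whose groups did not overlap. ERLEC1, a lectin of the disposal route, was lower (-1.0 ± 0.11). Outside glycan handling, HERPUD2 was lower (-0.53 ± 0.09). ERP44, which holds ERO1 oxidases and unfinished immunoglobulin in the early secretory pathway, was at 9.57, 9.51 and 9.50 in Pax5-deficient samples, against 10.53, 10.56 and 10.42 in wild-type samples. It was 1.97-fold lower (limma adjusted p = 0.000148). Among the genes of this list that did not pass were the chaperone genes HSPA5 and HSP90B1 and the stress sensors ERN1 and EIF2AK3, named after their values were seen. HSPA5 and HSP90B1 both had 0.34 (limma adjusted p = 0.215 and 0.141), with 95% intervals of 0.01 to 0.68 and 0.06 to 0.62. DNAJB9 had -0.38 (0.188) and passed as lower without wild-type replicate 1 (0.0331). HERPUD1 had 0.10 (0.664), SDF2L1 0.22 (0.528) and XBP1 0.03 (0.886). ERN1 had -0.20 (0.223) and lay lower without overlap, and EIF2AK3 had -0.47 (0.252). Not passing does not by itself show that a gene was alike in both groups. Over the 80 genes, 26.2% lay higher without overlap and 15.0% lower. Among named genes at or above the median level it was 20.4% and 23.6%.

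DNAJB11 and UGGT1 lie on chromosome 9, and TMED3 on chromosome 10 (1.62 ± 0.15 without Pax5-deficient replicate 2). DDOST lies on chromosome 21, where the median over named genes was 0.322, -0.009 and 0.251 in Pax5-deficient replicates 1, 2 and 3. Without Pax5-deficient replicate 2, DDOST passed as higher (1.18, limma adjusted p = 0.0127). The part of the chromosome 21 shift in its value was not tested. With wild-type replicate 2 left out, KDELR2 and ERGIC3 no longer passed (limma adjusted p = 0.0514 and 0.0726). GBF1 did not pass on leaving out wild-type replicate 1, 2 or 3 (0.0614, 0.0534 and 0.0572). BET1 did not pass on leaving out replicate 1 or 2 of either group (0.0713 and 0.0551 for Pax5-deficient, 0.0832 and 0.065 for wild type). UGGT2 did not pass on leaving out Pax5-deficient replicate 1 or 2 (0.065 and 0.0621) or wild-type replicate 1 or 3 (0.0757 and 0.1).

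**Figure D5:**
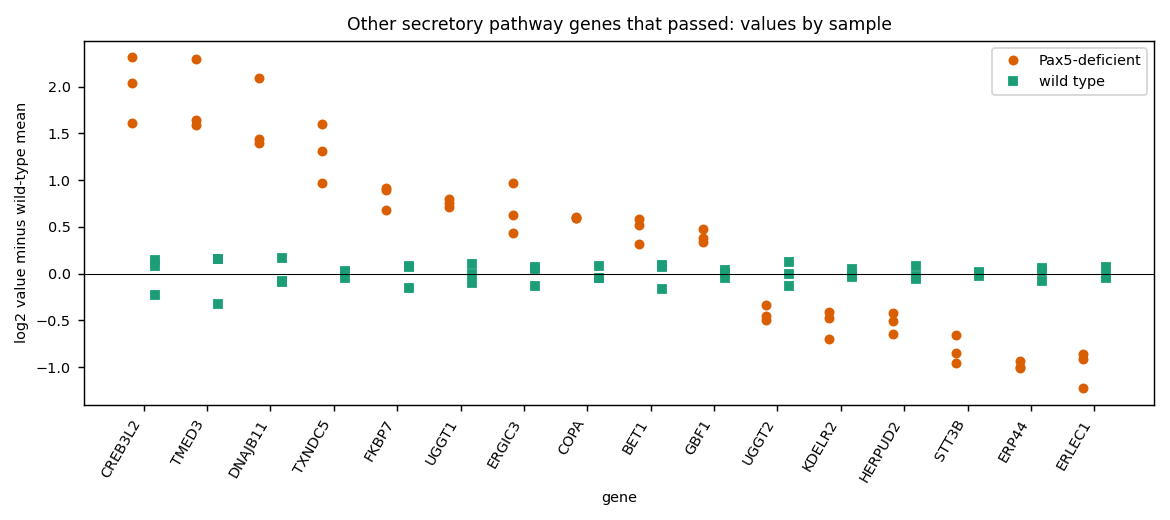
Log2 value of each sample minus the wild-type mean of that gene (y axis) for the 16 other secretory pathway genes that passed (x axis, ordered by difference); circles are Pax5-deficient samples and squares, to their right, wild-type samples, 3 of each. CREB3L2, TMED3, DNAJB11 and TXNDC5 lie highest in Pax5-deficient samples and ERLEC1 and ERP44 lowest, and the groups do not overlap for any of the 16.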

How the data were processed

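The authors deposited log2 values for every probe set and sample, computed with RMA per the submitters' processing notes. Which version and which chip definition they used: not given in the sources used here. RMA shrinks differences of dim probe sets. Of 38535 rows, none with a missing value, 96 array controls were left out. Gene names came from the platform annotation (27168 probe sets with 1 symbol, 177 with several, 11094 with none) and chromosomes from the RefSeq table of GRCg7b through Entrez IDs, found for all 61 members. The test was limma 3.58.1 in R 4.3.3, with lmFit on the groups alone and eBayes (two-sided), with p-values adjusted by Benjamini-Hochberg over 38439 probe sets and a threshold of 0.05. Standard errors and 95% intervals are limma's moderated ones, except that standard errors of the paralog ratios come from the group variances alone. On simulated data the fit missed most of the smallest changes it was given. Far fewer probe sets were changed there than passed here, so the share missed does not carry over to these data. Background is the 95% point, 3.78 to 3.93 by array, of 689 probe sets named by accession, which stand for virus sequences. Every member is given; those with full values passed, or had the smallest adjusted p or highest mean in their role group, and others were added after their values were seen, as were the choices of background and of gene pairs. The members and lists were chosen with earlier results of these data known. Tables and plots were made in Python 3.11.15.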

Additional observations from a re-analysis of the deposited data

How the results depend on the processing

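The 14 calls kept their direction in all 12 alternative fits. Of the 14, 9 (CALR, COPB2, DERL3, ERO1A, ERO1B, SAR1B, SEC24D, SRP19 and SSR3) passed with any 1 sample left out, and also with quantile normalization, median centring, gene means over probe sets and a variance trend. Median centring lost SRP54 (adjusted p = 0.0513), and gene means lost SEC62 and SRP54 (0.109 and 0.0679). Leaving out 1 sample gave 6 to 9 higher members where 10 were found (6 without wild-type replicate 1 or 3), 3 to 6 lower members where 4 were found, and 2490 to 4172 probe sets in all where 4085 were found, 2490 of them without wild-type replicate 2. The members' median log2 difference of 0.07 was 0.03 with only probe sets at or above the median level, 0.03 with gene means, 0.02 with chromosome medians subtracted and 0.02 to 0.06 with 1 sample left out. With the replicate number as a block all 14 calls remained, at 10 higher and 4 lower, and 4116 probe sets passed. Same-numbered samples correlated by 0.112, 0.072 and -0.020 in their deviations from the group means, and differently numbered ones by -0.11 to 0.053. With 3 samples per group, these correlations cannot settle whether the numbers pair the samples. Leaving out the members on chromosome 9, an alternative added after the data were seen, involved no new fit. All 3 of them were higher, so the counts of 7 higher and 4 lower follow directly.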
